A study of Mus musculus with 12 samples.

Results

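Ciita and 9 genes of the MHC class II pathway were followed across 12 bulk RNA-seq libraries of sorted mouse spleen B cells. The 10 genes were taken by symbol, namely Ciita, Cd74, H2-Aa, H2-Ab1, H2-Eb1, H2-DMa, H2-DMb1, H2-DMb2, H2-Oa and H2-Ob, from the 50686 gene IDs counted in each library. All 10 passed the filter on low counts, which left 17754 genes for testing. The 3 YC libraries, the controls, came from YFPstopF/+Cg1Cre/+ mice and held B220+YFP+ cells. BIC mice (3 libraries, B220+GFP+ cells) carried Blimp1F/F, IKK2castopF/stopF and Cg1Cre/+. pBIC mice (6 libraries, B220+GFP+ cells) carried the same alleles together with p53F/F. All 3 groups therefore carry Cg1Cre, a Cre driven from the Cγ1 immunoglobulin locus, which acts in B cells that have transcribed that locus and marks them through the reporter. Controls were sorted by YFP and both mutant groups by GFP, so reporter and genotype cannot be told apart in comparisons with YC. Age and strain are not given in the labels used here.

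MHC class II molecules are α and β chain pairs that carry peptides from endosomes to the surface of B cells and other antigen-presenting cells, where CD4+ T cells read them. The invariant chain, the product of Cd74, fills the groove of newly made pairs and takes them to the endosome, where the DM heterodimer exchanges its last fragment for peptide and the DO heterodimer restrains DM in B cells. CIITA, the product of Ciita, binds no DNA itself but is recruited to the X and Y boxes of class II promoters by RFX, CREB and NF-Y. Plasma cells lose Ciita and class II expression, and Blimp-1, the product of Prdm1, is a known repressor of Ciita.

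All 10 genes were called lower in pBIC than in YC (edgeR, adjusted p under 0.05), as were 10.2% of the 17754 tested genes, and all 10 were also called lower in pBIC than in BIC, as were 8.78%. The drop from YC to pBIC ran from 0.96 on the log2 scale for Cd74 to 2.44 for H2-Ob, and Ciita fell by 2.34. In BIC the classical chains and Cd74 stood near the control level, and H2-DMb1 was the only one of the 10 that passed the test, lower than in YC, where 4.97% of tested genes were. Together the 10 genes took 2.14% ± 0.0547 of all counts in YC (SD, n = 3), 2.27% ± 0.394 in BIC (n = 3) and 0.918% ± 0.183 in pBIC (n = 6).

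The library totals ran from 33127283 to 47067627 counts, so counting error is small for these genes and the spread between libraries limits the comparisons. Trp53 stood at 16.2 to 32.0 CPM (counts per 1000000 counts, scaled by TMM) in pBIC, below the 72.0 to 208 CPM of BIC and the 137 to 147 CPM of YC. Ikbkb, which encodes IKK2, stood at 381 to 538 CPM in both mutant groups and at 217 to 249 CPM in YC. Whole-gene counts of Prdm1 overlapped between the groups, from 0.717 to 21.3 CPM in pBIC, 5.32 to 41.1 CPM in BIC, and 18.1 to 20.0 CPM in YC, and they include exons outside the floxed part. Neutrophil markers, 10 genes summed, stood at 273 CPM in YC 1 and reached 888 CPM in BIC 1 and 1468 CPM in BIC 2, against at most 78.1 CPM in the other 9 libraries. Xist was at 1679 to 1827 CPM in all 3 BIC libraries, at most 5.13 CPM in YC and on both sides in pBIC, so sex and genotype cannot be told apart between BIC and YC.

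Promoter sequences are shown for the 6 genes whose RefSeq window (GRCm38.p6, 250 bases before to 50 after the start) held the letters TGATTGG, the core of the Y box that NF-Y reads. Of the 10 genes 7 had a RefSeq promoter entry. The entries of H2-DMa lie upstream of the start of the counted gene, so they do not show the promoter at that start, and they held no match. The entry of H2-DMb2 (34144999 to 34145298) lies downstream of the start of its counted gene (34143307). The H2-DMb2 line therefore does not show the promoter at that start either. Each line is 60 bases, 5′ to 3′ on the gene's strand, and capitals mark TGATTGG and, 15 to 45 bases upstream, CTNNNAAC, the core of the X box that RFX binds.
H2-Aa: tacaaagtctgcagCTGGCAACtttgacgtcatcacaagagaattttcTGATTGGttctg
H2-Eb1: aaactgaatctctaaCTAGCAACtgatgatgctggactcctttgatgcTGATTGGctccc
H2-DMb1: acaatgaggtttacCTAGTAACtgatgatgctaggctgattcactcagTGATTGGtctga
H2-DMb2: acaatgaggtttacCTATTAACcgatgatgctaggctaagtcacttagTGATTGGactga
H2-Oa: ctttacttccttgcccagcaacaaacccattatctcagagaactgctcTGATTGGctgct
H2-Ob: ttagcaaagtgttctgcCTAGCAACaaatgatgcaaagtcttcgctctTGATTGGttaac

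The windows lie at chr17:34287862-34287921 on the minus strand for H2-Aa, and on the plus strand at chr17:34305758-34305817 for H2-Eb1, chr17:34153080-34153139 for H2-DMb1, chr17:34145109-34145168 for H2-DMb2, chr17:34092286-34092345 for H2-Oa and chr17:34238798-34238857 for H2-Ob. In 5 of them the X letters stood 31 to 34 bases upstream of the Y letters, counted from first base to first base, and H2-Oa had the Y letters alone. Of 32851 mouse promoters of the same length, 7.82% held TGATTGG, 41.1% held CTNNNAAC and 0.213% held both in this order and range, on either strand. These letters were chosen after the members' sequences had been read, so the match is a description. The windows of H2-DMb1 and H2-DMb2 were identical at 54 of 60 bases, and the other pairs at 17 to 28 of 60.

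Ciita (ENSMUSG00000022504.9, chromosome 16, 10488178 to 10527564, GRCm38) stood at 718, 756 and 698 CPM in the 3 YC libraries. The BIC libraries gave 429, 571 and 240.0 CPM, and pBIC ran from 43.6 to 270.0 CPM with a median of 126 CPM. Every BIC and every pBIC library was thus below every YC library, while pBIC 2 at 270.0 CPM was above BIC 3. The fall from YC to pBIC was called (log2 fold change -2.34 ± 0.41 SE, edgeR quasi-likelihood adjusted p = 0.00248), as was that from BIC to pBIC (-1.53 ± 0.41, adjusted p = 0.0239). The difference between BIC and YC was not called (-0.81 ± 0.50, adjusted p = 0.337). Without BIC 1 or BIC 2 the pBIC to BIC call of Ciita ended (edgeR adjusted p = 0.0821 and 0.12), as it did with a term for Xist (0.0682) and with these 2 groups alone (0.0513).

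Ciita had the largest spread of the 10 genes within BIC and within pBIC. The SD of its log2 CPM stood at 0.06 in YC, 0.64 in BIC and 0.88 in pBIC, beside medians of 0.17, 0.22 and 0.42 over tested genes that averaged 5 CPM or more. The highest pBIC library was 6.19-fold above the lowest for Ciita and 5.37-fold for H2-Oa, against 1.81- to 3.25-fold for the other 8 genes. The fit estimates one spread over all 3 groups, and the groups differed in theirs.

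**Figure D1:**
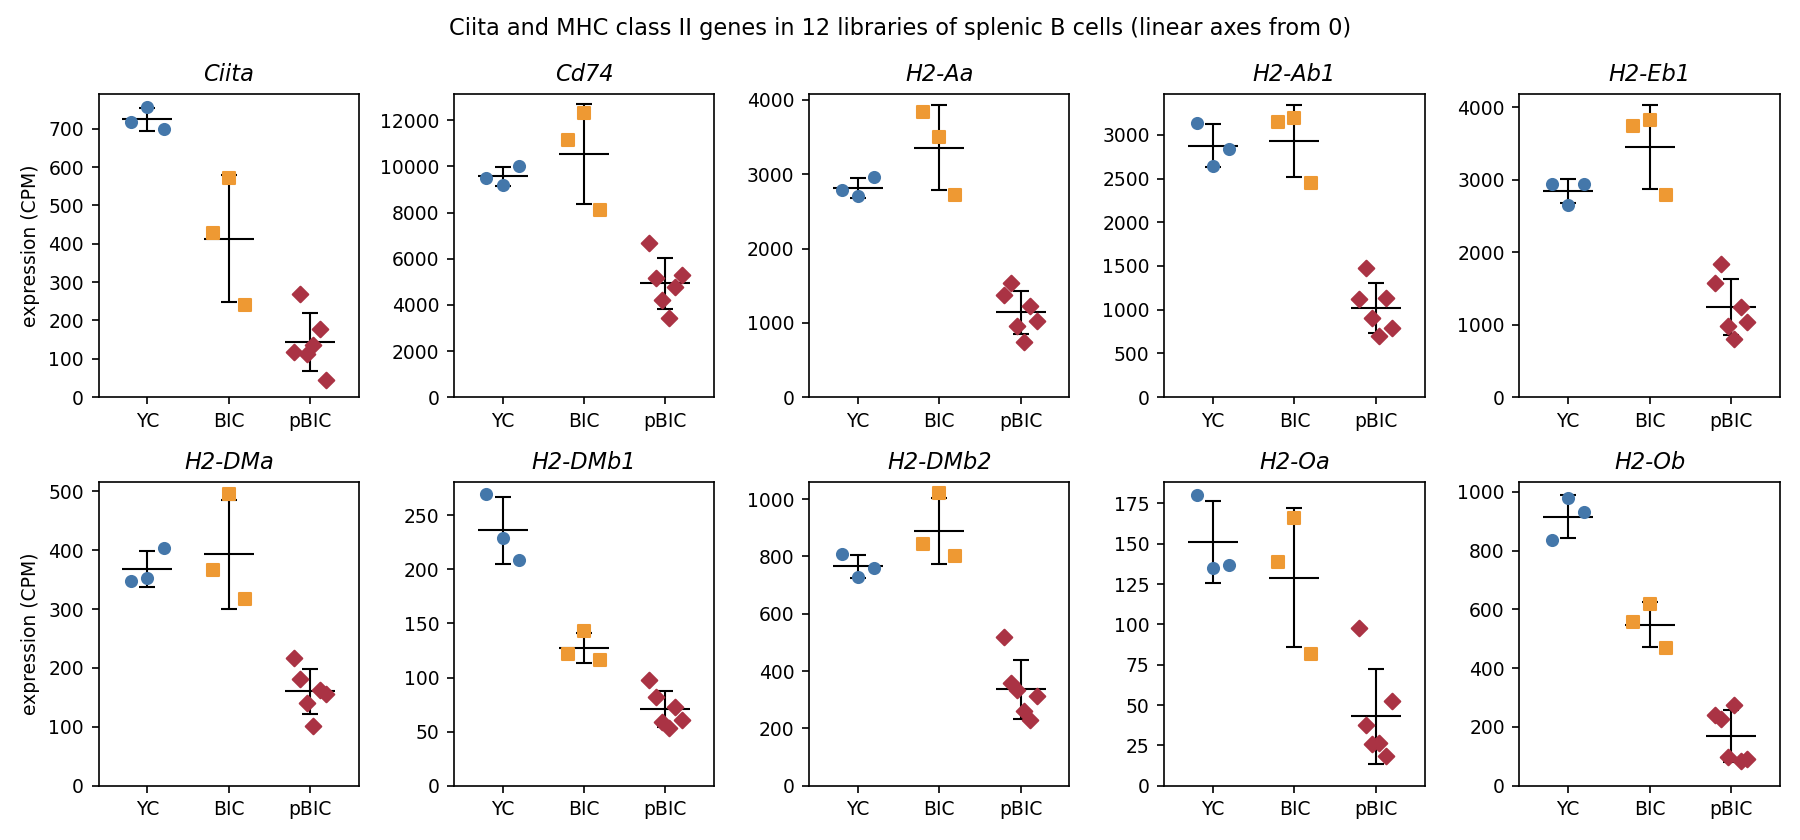
Expression of each of the 10 genes in CPM (linear axes from 0), with 1 point per library, a horizontal line at the group mean and bars of 1 SD (YC n = 3, BIC n = 3, pBIC n = 6). Every pBIC library lies below every YC library in all 10 panels, and pBIC overlaps BIC for Ciita and H2-Oa.

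The classical chains form the peptide-binding molecules themselves, I-A from H2-Aa and H2-Ab1 and the β chain of I-E from H2-Eb1. H2-Ab1 (ENSMUSG00000073421.5, chromosome 17, 34263209 to 34269418) stood at 3140, 2644 and 2843 CPM in YC and at 3144, 3187 and 2449 CPM in BIC. In pBIC it ran from 698 to 1473 CPM with a median of 1016 CPM. YC and BIC overlapped, and all 6 pBIC libraries were below both.

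H2-Aa, which encodes the α chain of I-A, gave 2791, 2701 and 2958 CPM in YC, 3840, 3503 and 2725 CPM in BIC, and 749 to 1540 CPM (median 1123) in pBIC. H2-Eb1 gave 2936, 2649 and 2948 CPM in YC, 3736, 3831 and 2786 CPM in BIC, and 804 to 1833 CPM (median 1144) in pBIC. For both genes BIC 3 fell inside the YC range and the other BIC libraries were above it. H2-Ea-ps, the gene of the I-E α chain, which many laboratory strains carry in an inactive form, averaged 0.224 CPM over the 12 libraries.

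The falls from YC to pBIC were close to each other for the 3 classical chains, at -1.49 ± 0.21 for H2-Ab1, -1.30 ± 0.21 for H2-Aa and -1.19 ± 0.24 for H2-Eb1 (log2 fold changes with their SE, by edgeR with adjusted p = 0.000906, 0.00158 and 0.00442). From BIC to pBIC they were -1.52 ± 0.21, -1.55 ± 0.21 and -1.47 ± 0.23 (edgeR adjusted p = 0.00133, 0.00107 and 0.00227). Between BIC and YC the same genes differed by 0.03 to 0.28, with adjusted p from 0.565 to 0.965 by edgeR.

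Cd74 (ENSMUSG00000024610.14, chromosome 18), the invariant chain, had the highest level per kb of exon of the 10 genes in every group. It stood at 9494, 9213 and 9997 CPM in YC, at 11137, 12328 and 8128 CPM in BIC, and at 3444 to 6695 CPM with a median of 4951 CPM in pBIC. All pBIC libraries were below all others, and its fall was the smallest of the 10 from YC (log2 fold change -0.96 ± 0.20, edgeR adjusted p = 0.00558) and stood at -1.10 ± 0.20 from BIC (adjusted p = 0.00379). BIC and YC overlapped (0.14 ± 0.23, edgeR adjusted p = 0.755).

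The DM genes encode the peptide exchange factor, with H2-DMa for its α chain and H2-DMb1 and H2-DMb2 for alternative β chains. H2-DMb1 (ENSMUSG00000079547.3, chromosome 17, 34153072 to 34160230) stood at 270.0, 229 and 209 CPM in YC, at 122, 143 and 116 CPM in BIC, and at 53.7 to 97.3 CPM with a median of 66.6 CPM in pBIC. The 3 groups did not overlap, with YC highest and pBIC lowest. It was lower in BIC than in YC (log2 fold change -0.89 ± 0.23, edgeR adjusted p = 0.0308), lower in pBIC than in YC (-1.74 ± 0.19, adjusted p = 0.000218) and lower in pBIC than in BIC (-0.84 ± 0.19, adjusted p = 0.0102).

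H2-DMb2 (chromosome 17, 34143307 to 34151553), its neighbour, gave 807, 728 and 759 CPM in YC and 843, 1020 and 803 CPM in BIC. In pBIC it ran from 230.0 to 520.0 CPM with a median of 324 CPM. Its BIC mean was above its YC mean by a difference that did not pass (log2 fold change 0.22, edgeR adjusted p = 0.646), and it fell in pBIC by 1.19 against YC (adjusted p = 0.00308) and by 1.40 against BIC (adjusted p = 0.00202).

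Per kb of exon, the ratio of H2-DMb1 to H2-DMb2 came to 0.386, 0.363 and 0.316 in YC, 0.167, 0.161 and 0.166 in BIC and 0.201 to 0.363 in pBIC. The BIC ratios were below all others, and pBIC 5 alone reached the YC range. Of the 100-base stretches in the transcripts of H2-DMb1, 11.3% also occur in those of H2-DMb2, and reads that align equally well to both are not counted without a multimapping option, so the counts of both may lack such reads. The BIC call of H2-DMb1 ended when any 1 of the 6 YC and BIC libraries was left out (edgeR adjusted p from 0.0782 to 0.116), with log2 fold changes of -0.95 to -0.79 on fewer libraries. It also ended with a term for Xist (0.171) and with no filter on low counts (0.0516). Its call in pBIC against BIC ended without BIC 2 (0.0575). With the β chain genes summed, BIC and YC differed by 0.02 (edgeR adjusted p = 0.969).

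H2-DMa (chromosome 17, 34135182 to 34139101) stood at 347, 353 and 403 CPM in YC, at 366, 496 and 317 CPM in BIC and, in pBIC, at 102 to 217 CPM with a median of 160 CPM. YC and BIC overlapped, and pBIC was below both by 1.20 and 1.30 on the log2 scale (edgeR adjusted p = 0.00249 and 0.00252).

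The DO genes encode the B cell inhibitor of DM. H2-Ob (ENSMUSG00000041538.15, chromosome 17, 34238903 to 34245907), its β chain, stood at 837, 980 and 930 CPM in YC, 558, 619 and 468 CPM in BIC, and 84.1 to 273 CPM with a median of 162 CPM in pBIC. Its 3 groups did not overlap. The falls in pBIC were called (log2 fold change -2.44 ± 0.37 against YC and -1.70 ± 0.37 against BIC, edgeR adjusted p = 0.00112 and 0.00844). Against YC, BIC did not pass (-0.74 ± 0.44, adjusted p = 0.32), except in a fit of these groups alone (adjusted p = 0.0113).

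H2-Oa (chromosome 17, 34092340 to 34095234), the α chain, gave 180.0, 135 and 137 CPM in YC, 139, 166 and 81.5 CPM in BIC, and 18.2 to 97.9 CPM with a median of 32.0 CPM in pBIC. BIC overlapped YC, and pBIC 1 at 97.9 CPM was above BIC 3. It was lower in pBIC than in YC (log2 fold change -1.81 ± 0.44, edgeR adjusted p = 0.0124) and than in BIC (-1.58 ± 0.44, adjusted p = 0.0267). These calls ended without YC 1 or with a term for Xist for the first (edgeR adjusted p = 0.055 and 0.0592) and without BIC 1 or BIC 2 for the second (0.0925 and 0.108). The second also ended with no filter on low counts (0.051) and with these groups alone (0.0548). Antisense transcript BC051537 shares 8.98% of the 100-base stretches of H2-Oa, with at most 58 counts in a library. Brd2 shares 6.58% of those of H2-DMa, and Dexi, on the opposite strand, 0.324% of those of Ciita. Dexi had up to 3265 counts in a library, and Ciita had 1843 in pBIC 6, its lowest. Mir5107 overlaps Cd74 on the same strand, with at most 1277 counts in a library.

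**Figure D2:**
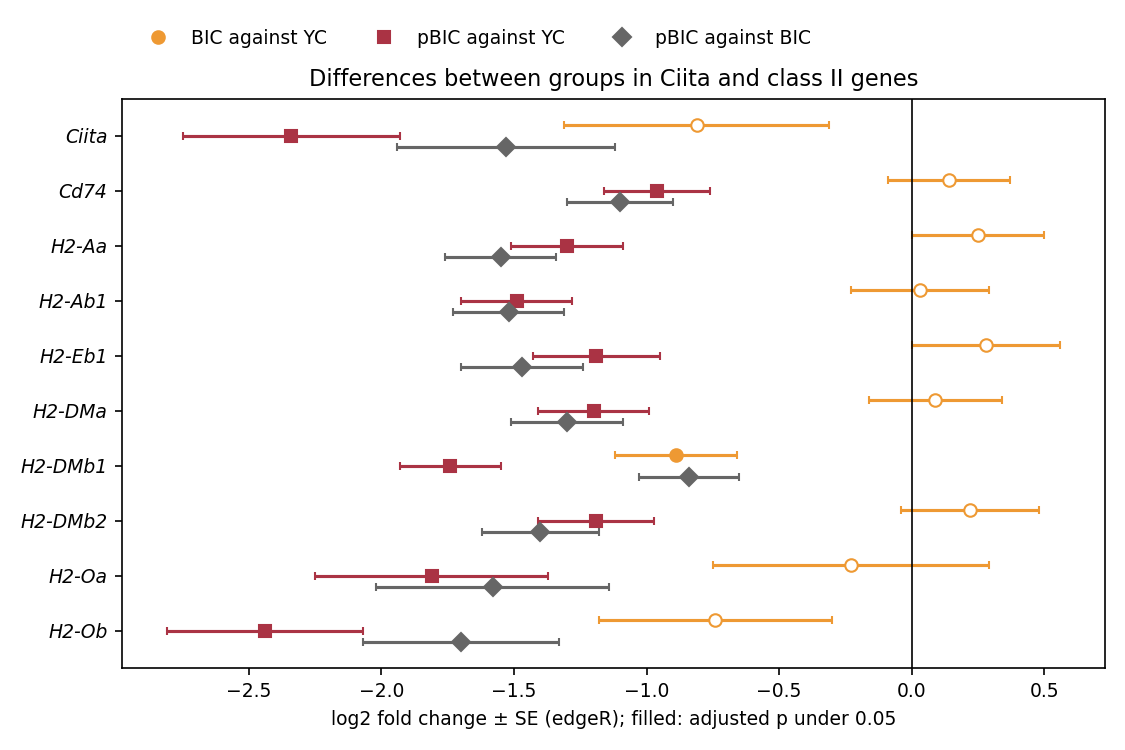
Log2 fold change of each gene in the 3 comparisons, with bars of 1 SE from the edgeR fit and filled symbols where the adjusted p was under 0.05. All 20 values for pBIC are negative and filled, and H2-DMb1 has the 1 filled value of BIC against YC.

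Counted over the list, 1 of 10 genes was lower in BIC than in YC, where 4.97% of the 17754 tested genes were called lower, 3.9% higher and 8.88% in either direction. Against YC, pBIC was lower for 10 of 10 genes, where 10.2% of tested genes were called lower, 11.8% higher and 22% in either direction. Against BIC, pBIC was lower for 10 of 10, where 8.78% were called lower, 10.9% higher and 19.7% in either direction. Each comparison shares a group with the others. The median log2 fold change of the 10 genes was 0.06, -1.40 and -1.49 in this order, against 0.01, 0.10 and 0.09 for all tested genes.

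Complete separation of libraries gave a like picture. All BIC libraries were below all YC libraries for 3 genes, Ciita, H2-DMb1 and H2-Ob, as for 23.2% of tested genes. All pBIC libraries were below all YC libraries for 10 of 10 genes (13.2% of tested genes) and below all BIC libraries for 8 of 10 (9.91%). Separation of pBIC from all 6 other libraries, also found for these 8, held for 4.37% of tested genes.

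The order of the levels per kb of exon differed between groups among the less abundant members. In YC it ran from Cd74 (6786 ± 281 CPM per kb, SD, n = 3) through H2-Eb1 (2402 ± 143), H2-Ab1 (1757 ± 153), H2-Aa (1503 ± 69.5), H2-DMb2 (447 ± 23.1), H2-Ob (290 ± 22.9), H2-DMa (224 ± 18.7), H2-DMb1 (159 ± 21.1) and Ciita (138 ± 5.57) to H2-Oa (115 ± 19.4). The ranges of H2-DMb1 and Ciita overlapped there, as did those of Ciita and H2-Oa. In BIC, H2-DMa (239 ± 56.4 CPM per kb, n = 3) came before H2-Ob (174 ± 24), H2-Aa and H2-Ab1 stood at 1791 ± 305 and 1788 ± 253, and H2-Oa, the lowest in YC, had a mean above those of H2-DMb1 and Ciita, with overlapping libraries.

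In pBIC, Cd74 (3494 ± 778 CPM per kb, n = 6) was again followed by H2-Eb1 (1052 ± 330), H2-Ab1 (624 ± 173) and H2-Aa (611 ± 155), the last 2 within their spread. H2-DMa at 97.3 ± 23.7 CPM per kb was above H2-Ob at 53.5 ± 27.6, the reverse of their order in YC, except in pBIC 4, where H2-Ob was the higher. Below it H2-DMb1 (47.7 ± 11.1), H2-Oa (32.8 ± 22.4) and Ciita (27.2 ± 14.5) lay within each other's spread.

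Ratios within a library, given without a test, show which members moved apart. The DO chains over the DM chains, per kb, were 0.465 to 0.519 for YC, 0.284 to 0.354 for BIC and 0.144 to 0.426 in pBIC. Both mutant groups were below YC in every library. H2-Ab1 over Ciita was 11.2 to 14.0 for YC, 17.9 to 32.7 for BIC and 16.6 to 58.0 in pBIC, also with no overlap with YC.

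Among the classical chains the ratios moved less. H2-Aa over H2-Ab1 was 0.776 to 0.909 for YC, 0.96 to 1.07 for BIC and 0.914 to 1.13 in pBIC, just above YC in all 9 mutant libraries. H2-Eb1 over H2-Ab1 was 1.29 to 1.43 for YC, 1.57 to 1.66 for BIC and 1.49 to 1.93 in pBIC, also above YC in all 9. Cd74 over H2-Ab1 was 3.51 to 4.08 for YC, 3.85 to 4.49 for BIC and 4.05 to 7.81 in pBIC, overlapping at each step. H2-Ab1 over B2m, the light chain of MHC class I, was 1.26 to 1.46 for YC, 0.509 to 0.667 for BIC and 0.173 to 0.451 in pBIC, with no overlap.

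**Figure D3:**
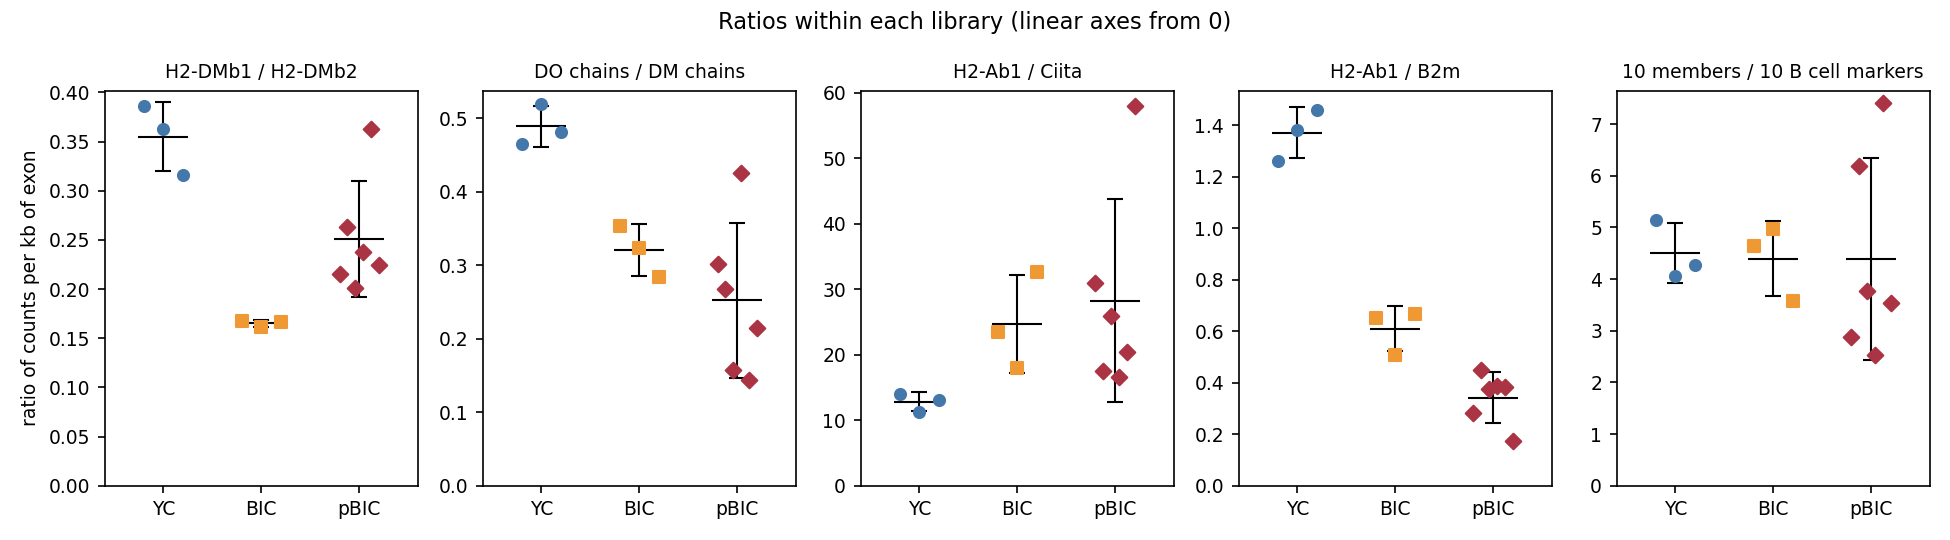
Ratios of counts per kb of exon within each library (linear axes from 0), with 1 point per library, group means and bars of 1 SD. H2-DMb1 over H2-DMb2 is lowest in BIC (0.161 to 0.167), and H2-Ab1 over Ciita is above the YC range in all 9 mutant libraries. The 10 genes over 10 B cell markers average 4.50 in YC and 4.39 in each mutant group, with pBIC libraries from 2.53 to 7.40 (median 3.65).

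B cell markers, like the class II genes, were lower in pBIC as a group. The summed level of 10 B cell markers was 9768 to 11619 CPM in YC, 10083 to 10902 CPM in BIC, and 2831 to 8082 CPM in pBIC, lower in pBIC than in every other library. Within pBIC the order of libraries differed. The marker sum was lowest in pBIC 5 and highest in pBIC 1, and H2-Ab1 was lowest in pBIC 4 (698 CPM) and highest in pBIC 2 (1473 CPM). In pBIC all 10 markers had a negative log2 fold change in both comparisons. Against YC 4 of 10 passed (median -1.06), where 10.2% of tested genes were called lower, and against BIC 5 of 10 (median -1.16), where 8.78% were. Ptprc, which encodes the B220 used in the sort, fell from 1642 to 2001 CPM in YC to 445 to 772 CPM in pBIC.

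Set against these markers, per kb, the 10 class II genes gave a ratio of 4.06 to 5.15 in YC, 3.58 to 4.97 in BIC and 2.53 to 7.40 in pBIC, a ratio added after the data had been seen. Its group means were 4.50, 4.39 and 4.39 and its groups overlapped. The pBIC mean rests on pBIC 2 (6.19) and pBIC 5 (7.40), while pBIC 1, 3, 4 and 6, at 2.53 to 3.77, were below every YC library, and the pBIC median was 3.65. Cd74, which fell least of the 10 genes from YC, is the largest term of the class II sum. In bulk libraries, fewer cells of a type and less RNA per cell cannot be told apart. The part of the B cell markers in the class II values was not tested.

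Other cells that carry class II were looked for through their markers. Summed dendritic cell markers (10 genes) were 70.6 to 110.0 CPM in YC, 17.3 to 22.2 CPM in BIC, and 12.4 to 39.9 CPM in pBIC, and macrophage and monocyte markers (12 genes) were 52.6 to 102, 184 to 304 and 28.3 to 374 CPM. Most of the dendritic cell sum in YC was Flt3 (mean 47.2 CPM) and Itgax (25.0 CPM). In pBIC against YC, Flt3, Itgax and Cd209a were called lower and Batf3 higher (log2 fold change 3.91 ± 0.88, edgeR adjusted p = 0.00869), and the other 6 did not pass. Most of the macrophage and monocyte sum in BIC was Lyz2 (mean 125 CPM) and Cd68 (70.5 CPM). Of these 12 markers, 11 had a positive log2 fold change in BIC against YC and 10 in pBIC against YC. Cd68 was called higher in BIC (2.37 ± 0.57, edgeR adjusted p = 0.0263). Adgre1, the gene of F4/80, was lower than in YC in BIC (-2.85 ± 0.68, edgeR adjusted p = 0.0245) and in pBIC (-4.74 ± 0.56, adjusted p = 0.000314). No other marker of the 12 was called in these comparisons. Plasmacytoid dendritic cell markers (7 genes) were 516 to 558 CPM in YC, 1475 to 1944 CPM in BIC, and 509 to 1207 CPM in pBIC. Most of this sum was Ly6d (means of 212, 1052 and 438 CPM) and Tcf4 (255, 551 and 312 CPM), while Siglech, a defining marker, averaged at most 1.28 CPM in a group; these 3 were singled out after their values were seen.

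Plasma cell markers (9 genes) summed to 1811 to 2154 CPM in YC, 652 to 1538 CPM in BIC, and 517 to 1506 CPM in pBIC. Jchain, Sdc1 and Xbp1 were called lower in pBIC than in YC, where 10.2% of tested genes were, and the other 6 were not called. The 9 did not move as one, with 6 negative and 3 positive log2 fold changes in pBIC against YC, the positive ones for Creld2 (1.08), Mzb1 (0.48) and Tnfrsf17 (0.28). T cell markers (9 genes) summed to 61.8 to 94.5, 128 to 167 and 21.2 to 58.1 CPM, and erythroid markers (7 genes) to 20.0 to 537, 98.1 to 307 and 21.4 to 423 CPM. Most of the T cell sum was Lck (means of 65.3, 55.5 and 23.9 CPM) and Cd3g (2.61, 61.4 and 4.04 CPM), singled out after their values were seen. Every other T cell marker averaged at most 6.32 CPM in a group. No marker of these lists was at 0 in all libraries of a group. Without YC 1, BIC 1 and BIC 2, the libraries highest in neutrophil markers, 8 of 10 class II genes were still called lower in pBIC than in YC, all but H2-Eb1 (edgeR adjusted p = 0.0516) and H2-Oa (0.0981). None was then called in pBIC against BIC, where 1 BIC library remained and 29 genes in all were called, and the log2 fold changes of the 10 genes were then -1.48 (H2-Ob) to -0.72 (H2-DMb1).

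Over all tested genes 8.88% were called in BIC against YC, 22% in pBIC against YC and 19.7% in pBIC against BIC. Of 12 genes for factors that assemble on class II promoters, none passed in BIC against YC or in pBIC against BIC, and in pBIC against YC 5 fell and 1 rose. The 4 of lowest p among the 5 were Creb1 (log2 fold change -0.80 ± 0.17), Rfx5, a subunit of RFX (-0.82 ± 0.21), and the acetyltransferase genes Crebbp (-0.88 ± 0.23) and Kat2b (-0.75 ± 0.21), with edgeR adjusted p from 0.00733 to 0.0221. Rfx5 stood at 96.9 to 120.0 CPM in YC, 55.9 to 89.8 CPM in BIC, and 45.4 to 82.6 CPM in pBIC. Carm1, an arginine methyltransferase gene, rose (1.18 ± 0.34, edgeR adjusted p = 0.0282) with overlapping groups.

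Of 16 genes listed as regulators of Ciita, 1 rose and 2 fell in BIC against YC, where 3.9% of tested genes were called higher and 4.97% lower. Zbtb32, a repressor reported to act on Ciita with Blimp-1, rose from 24.9 to 31.9 CPM in YC to 259 to 387 CPM in BIC (a log2 fold change of 3.41 ± 0.50, edgeR adjusted p = 0.003). It stood at 102 to 412 CPM in pBIC, also above YC (2.83 ± 0.46, adjusted p = 0.00163). Irf8, a transcription factor of B and myeloid cells, fell against YC in BIC (-1.31 ± 0.32, edgeR adjusted p = 0.0265) and in pBIC (-1.83 ± 0.26, adjusted p = 0.000873).

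Bcl6, the germinal centre repressor, fell by 4.95 in BIC and by 5.88 in pBIC against YC on the log2 scale (edgeR adjusted p = 0.0121 and 0.000566). In pBIC against YC 5 of the 16 fell and 1 rose, where 10.2% of tested genes were called lower and 11.8% higher. The others that fell were Spi1, which encodes PU.1 (-0.81 ± 0.13), Ets1 (-1.49 ± 0.37) and Pax5, also 1 of the B cell markers (-1.0 ± 0.29), with edgeR adjusted p of 0.00166, 0.0135 and 0.0293. Spi1 also separated pBIC from BIC, at 44.6 to 56.3 CPM against 68.4 to 89.2 CPM (-0.66 ± 0.13, edgeR adjusted p = 0.00621). In that comparison Ezh2, a histone methyltransferase gene, rose (0.97 ± 0.27, adjusted p = 0.0272), and no other gene of the list passed. Over all tested genes 10.9% were called higher and 8.78% lower there.

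Of 10 genes of endosomal antigen processing, 4 rose in BIC against YC and none fell, where 3.9% of tested genes were called higher and 4.97% lower. The 4 were the protease genes Napsa (1.60 ± 0.29), Ctss (1.31 ± 0.26), Ctsz (1.05 ± 0.25) and Ctsb (1.30 ± 0.36), with edgeR adjusted p from 0.00779 to 0.0434. Ctss encodes cathepsin S, which trims the invariant chain in B cells, and it stood at 246 to 277 CPM in YC, 562 to 717 CPM in BIC, and 219 to 485 CPM in pBIC. In pBIC against YC Napsa rose (1.14 ± 0.26, edgeR adjusted p = 0.00942) and Ctsh fell (-0.89 ± 0.23, adjusted p = 0.0159). In pBIC against BIC Ctss and Ctsh fell (-0.92 ± 0.22 and -0.73 ± 0.23, edgeR adjusted p = 0.0126 and 0.0421). The other 8 of the 10 were not called in either comparison of pBIC, where 22% of tested genes were called against YC and 19.7% against BIC.

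Of 12 genes whose products act with class II at the cell surface, 2 rose and 1 fell in BIC against YC, where 3.9% of tested genes were called higher and 4.97% lower. Cd80, a costimulatory ligand, stood at 8.36 to 11.8 CPM in YC, 53.3 to 75.6 CPM in BIC, and 13.6 to 31.1 CPM in pBIC, called in each comparison (log2 fold change 2.66 ± 0.30, 1.20 ± 0.26 and, pBIC against BIC, -1.47 ± 0.24). Cd9, a tetraspanin gene, moved in the same directions (3.52 ± 0.34, 1.93 ± 0.30 and -1.59 ± 0.26). Icosl, the ICOS ligand, fell at each step, from 220.0 to 243 CPM through 36.2 to 87.2 CPM to 6.41 to 32.5 CPM.

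March1, which encodes the ubiquitin ligase that removes class II from the surface, stood at 178 to 275 CPM in YC, 96.1 to 170.0 CPM in BIC, and 4.21 to 59.6 CPM in pBIC. It was lower in pBIC than in YC (log2 fold change -3.2 ± 0.67, edgeR adjusted p = 0.00613) and than in BIC (-2.38 ± 0.67, adjusted p = 0.0276). Cd82, a tetraspanin gene, was lower in pBIC than in YC (-1.42 ± 0.41, edgeR adjusted p = 0.0288). In all, 2 of the 12 rose and 3 fell in pBIC against YC, where 11.8% of tested genes were called higher and 10.2% lower. Against BIC 5 of the 12 fell, where 8.78% were called lower.

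Genes of MHC class I presentation were followed for comparison. Of 14 tested, 4 rose in BIC against YC, where 3.9% of tested genes were called higher. They were Nlrc5, the class I counterpart of Ciita (1.36 ± 0.36), B2m (1.22 ± 0.32), H2-Q7 (1.52 ± 0.38) and Tapbp (1.22 ± 0.32), with edgeR adjusted p from 0.0312 to 0.0359. In pBIC against YC 3 rose and none fell, Canx (0.96 ± 0.23), Erap1 (0.99 ± 0.24) and Tapbp (0.87 ± 0.28), where 11.8% of tested genes were called higher and 10.2% lower. Against BIC, H2-Q7 (-1.47 ± 0.31) and H2-T23 (-1.21 ± 0.29) fell (edgeR adjusted p = 0.00816 and 0.0135), where 8.78% of tested genes were called lower.

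Within the class II region of chromosome 17, which interleaves class II and class I processing genes, the 8 class II members were lower in pBIC than in YC. Of the other 8 tested genes listed there, 6 did not pass. Over all tested genes 22% were called in either direction in this comparison, so most genes did not pass either. The 6 included Brd2 (-0.14 ± 0.38), between H2-Oa and H2-DMa, and Psmb9 (0.49 ± 0.38), Tap1 (0.24 ± 0.31), Psmb8 (0.61 ± 0.29) and Tap2 (0.24 ± 0.32), between H2-DMb1 and H2-Ob, with edgeR adjusted p from 0.151 to 0.822. H2-Eb2, a class II β chain gene, fell (-1.95 ± 0.31, adjusted p = 0.00147), as did Btnl2, of the butyrophilin family (-2.30 ± 0.46, adjusted p = 0.00459). H2-Ea-ps, at the limit of detection, was the sixth that did not pass (edgeR adjusted p = 0.142). Against BIC, H2-Eb2 alone of the 8 fell in pBIC (-1.21 ± 0.31, edgeR adjusted p = 0.0184), where 19.7% of tested genes were called. None of the 8 passed in BIC against YC, where 8.88% were called. Outside this list, 1 gene of unknown biotype between H2-Ob and H2-Ab1, ENSMUSG00000092222.1, named after its values were seen, averaged 8.24 CPM and was lower in BIC than in YC (-1.53 ± 0.38, edgeR adjusted p = 0.0277) and in pBIC than in either group (-2.52 ± 0.31 and -0.99 ± 0.31, adjusted p = 0.000372 and 0.0434).

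**Figure D4:**
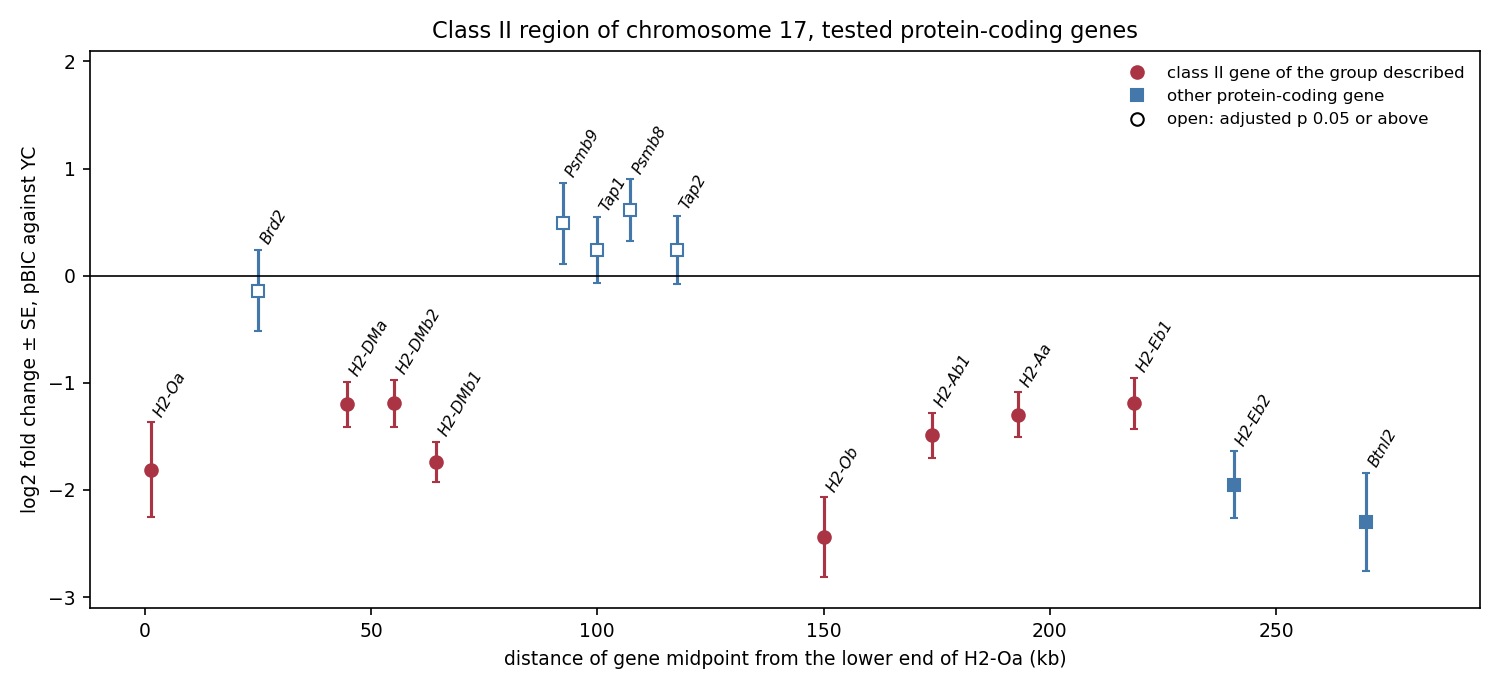
Log2 fold change of pBIC against YC with bars of 1 SE (edgeR) for tested protein-coding genes of the class II region, by distance in kb of the gene midpoint from the lower end of H2-Oa. The 8 class II members and H2-Eb2 and Btnl2 lie at or below -1.19, and Brd2, Psmb9, Tap1, Psmb8 and Tap2 lie between -0.14 and 0.61 with open symbols.

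The level of Ciita and the levels of the other 9 genes were compared over the 6 pBIC libraries alone, which share 1 labelled genotype. The deposited data carry a mark, not explained in the labels, that sets pBIC 1 to 3 apart from pBIC 4 to 6; it was not used as a group, and its part in the spread within pBIC was not tested. H2-DMb2 stood at 520.0, 358 and 335 CPM in the first 3 and 260.0, 230.0 and 313 CPM in the last 3. No other member separated these sets. Ciita, for example, stood at 117, 270.0 and 112 CPM in the first 3 and 135, 179 and 43.6 CPM in the last 3. By Xist the pBIC libraries split otherwise, at 1490 to 2632 CPM in pBIC 2, 4 and 5 and 2.57 to 4.22 CPM in pBIC 1, 3 and 6. Ciita stood at 135 to 270.0 CPM in the former and at 43.6 to 117 CPM in the latter, without overlap. No other member separated by Xist. This split was looked at after the values were seen, and its part in the spread of Ciita was not tested. Pearson's r of log2 CPM ran from -0.36 for H2-Oa to 0.68 for H2-Ab1 (exact permutation p = 0.131, adjusted over 9 relations p = 0.735, Spearman's rho 0.66 with exact permutation p = 0.175). None of the 9 passed, adjusted or not, by either measure. Without pBIC 2 and pBIC 6, the libraries farthest from the Ciita median, r for H2-Ab1 was 0.24. For Cd74, r was -0.13 (exact permutation p = 0.815). pBIC 6 had the lowest Ciita (43.6 CPM) but not the lowest level of any other member, pBIC 4 had the lowest Cd74, H2-Aa, H2-Ab1, H2-Eb1, H2-DMa and H2-DMb1, and pBIC 5 the lowest H2-DMb2, H2-Oa and H2-Ob.

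**Figure D5:**
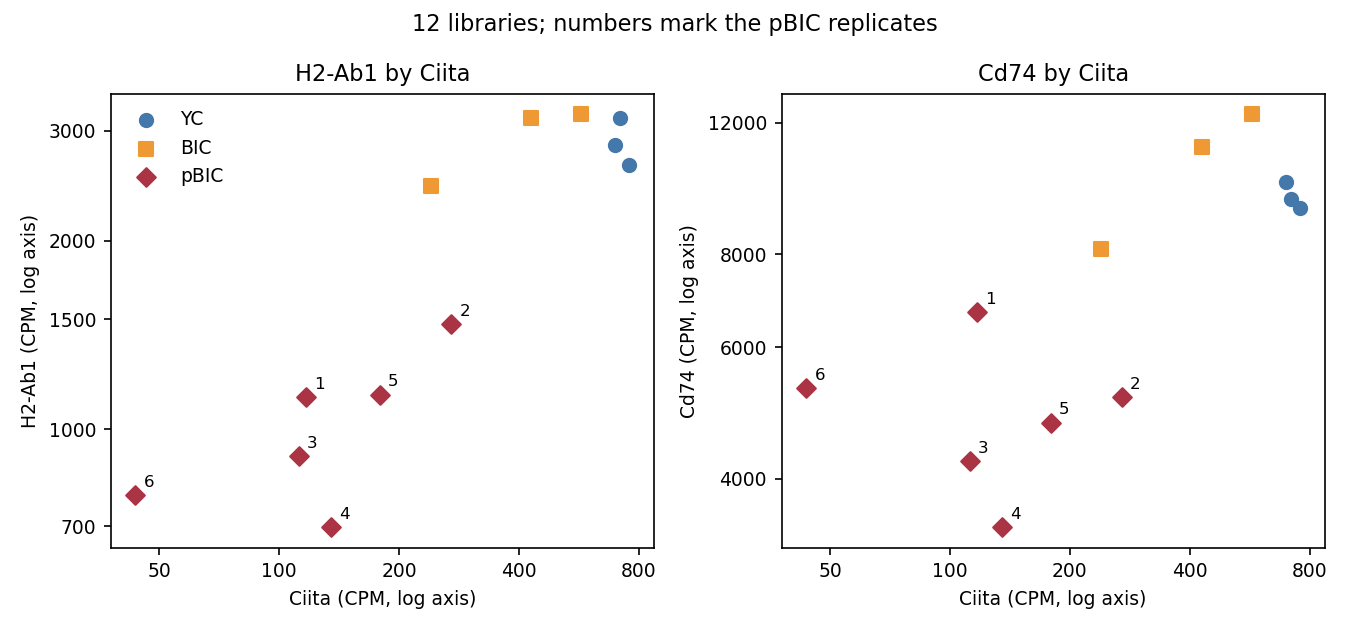
H2-Ab1 (left) and Cd74 (right) against Ciita in the 12 libraries, in CPM on log axes, with the replicate number beside each pBIC point. pBIC 6 has the lowest Ciita at 43.6 CPM with H2-Ab1 at 786 CPM and Cd74 at 5292 CPM.

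Genes whose pattern over the 12 libraries was most like that of Ciita, after subtraction of group means from log2 CPM, were Jdp2 (r = 0.981), Prkca (0.966), Rab30 (0.95), Tlr12 (0.949) and Slc36a1 (0.947), out of 9461 genes that averaged 5 CPM or more. On the same measure the class II members reached at most 0.702 with Ciita, for H2-Ab1. For the mean of H2-Aa, H2-Ab1, H2-Eb1 and Cd74 the 5 nearest genes outside the list were Ctdnep1 (r = 0.957), Ctsc (0.907), Grn (0.899), Dnajc1 (0.897) and Ift20 (0.891), beside 0.88 for H2-DMa, 0.844 for H2-DMb1 and 0.507 for Ciita. Without the subtraction r was 0.634, 0.471, -0.127, 0.67 and -0.182 for these 5, beside 0.981, 0.86 and 0.844 for H2-DMa, H2-DMb1 and Ciita. For the 5 genes nearest Ciita it was then 0.564 to 0.89. The likeness is thus one within groups, and Grn and Ift20 did not share the differences between groups. The points share their libraries and their depth, the genes were picked as the highest of many, and the group means of Jdp2 and Tlr12 were at most 6.78 and 19.6 CPM.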

How the data were processed

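RNA was poly(A) selected and sequenced as paired-end reads on an Illumina HiSeq, per the labels' protocols. The deposited files hold counts of reads per gene, not normalized; per the file headers the authors made them with featureCounts 1.5.0 on exons of GENCODE M13, with no paired-end, strand or multimapping option. Reads of overlapping or antisense genes can therefore not be told apart. The submitters' processing notes name STAR, edgeR, limma and GRCm38; the aligner's settings are unknown from these sources. Gene names came from GENCODE M21, matched by ID (50376 of 50686 IDs).

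Genes kept by filterByExpr (17754) were normalized by TMM and fitted with edgeR 4.0.16 (R 4.3.3) by the quasi-likelihood F test with robust estimation, over all 12 libraries with 1 coefficient per group. P-values were adjusted by Benjamini-Hochberg over all tested genes, and genes were called at an adjusted p under 0.05. The SE is the log2 fold change divided by the root of F, so it restates the test. CPM are TMM-scaled. Alternatives were DESeq2 1.42.0, limma-voom (limma 3.58.1), size factors, no filter, only the groups compared, a replicate block, a term for Xist, immunoglobulin genes left out of totals, summed H2-DMb genes, and each library left out. The scripts were tested on simulated data. Members, lists and the rule for named genes (every member, and in each other list the called genes, up to 4 per direction by p) were chosen with earlier results of these data known. The labels number the libraries but do not say which mice or days they share, so p-values measure the spread between these libraries. No 2 libraries agreed within sampling noise.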

Additional observations from a re-analysis of the deposited data

Results flagged for a closer look

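The ratio of H2-Ab1 to Ciita, per kb of exon, was 58.0 in pBIC 6, far from the other 5 pBIC libraries at 16.6 to 30.9. pBIC 6 also had the lowest Ciita of the 12 libraries (43.6 CPM) and the highest summed macrophage and monocyte markers of the pBIC group (374 CPM), and the part of these in the ratio was not tested.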

How the results depend on the processing

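All 10 genes kept a negative log2 fold change in pBIC against YC and against BIC under every alternative run. In pBIC against YC, 8 to 10 of them were called, and in pBIC against BIC 7 to 10 with 1 library left out (7 without BIC 2), 8 to 10 under the other settings and 0 without YC 1, BIC 1 and BIC 2, a choice made after seeing the data that leaves 1 BIC library, assumed to vary like the others. In BIC against YC the count of 1 became 0 with no filter, with the Xist term and without those 3 libraries, 2 with only these groups, and 0 to 1 with 1 library left out. Over all genes, BIC against YC gave 1576 calls, 3032 with DESeq2, 4602 with only these groups, 0 without the 3 libraries, and 563 to 1867 with 1 left out; the counts without BIC 1, BIC 2, YC 1, YC 2 and YC 3 were 603, 619, 734, 563 and 569. For pBIC against YC the 3914 calls became 1904 to 4376 with 1 left out and 1295 without the 3, and for pBIC against BIC the 3496 became 1422 to 4134 and 29. Apart from the called H2-DMb1, which was 0.02 in BIC against YC when summed with H2-DMb2, the signs that turned were of differences or correlations not called. In BIC against YC these were H2-Ab1 (-0.15 with the Xist term, -0.16 without the 3 libraries, -0.03 to 0.18 with 1 left out, turning without BIC 1 and YC 2), H2-DMa (-0.25 without the 3, -0.06 to 0.27 with 1 left out, turning without BIC 2), H2-Oa (0.93 with the Xist term, -0.41 to 0.05 with 1 left out, turning without BIC 3), Cd74 (-0.24), H2-Aa (-0.05) and H2-Eb1 (-0.0039, these 3 genes without the 3 libraries). Within pBIC, r with Ciita turned for Cd74 (-0.28 to 0.08, without pBIC 6), H2-DMa (-0.1 to 0.27, without pBIC 2) and H2-DMb2 (-0.23 to 0.13, without pBIC 5). The causes were not tested. Of the calls between pBIC and YC, 53.7% were higher in pBIC, 43.1% with limma-voom and 39.8% without the 3 libraries. Equal replicate numbers did not pair the libraries (r of deviations from -0.15 to 0.185 for pairs of the same number), and with a replicate block 1725, 3144 and 2424 genes and 1, 10 and 10 members were called, with BIC against YC first, then pBIC against YC, then pBIC against BIC. Depth does not limit these genes; with 3 libraries in YC, 3 in BIC and 6 in pBIC, the spread between libraries does.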
